A study of Mus musculus with 160 samples.

Results

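The Hnrnp and SR splicing factors were followed across single stromal cells of the mouse bone marrow. The members were the named genes whose symbol begins with Hnrnp, Srsf, Sfrs, Snrnp or Pcbp, alone or within a row that joins several symbols. The table held 44 such rows, and summing rows of the same name left 41 members of 22866 named genes. The families counted 18 Hnrnp, 12 Srsf (with Sfrs18), 7 Snrnp and 4 Pcbp members.

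The cells came from C57BL/6J mice, 78 cells from old mice (24 months by the sample labels, 2 years by the protocol) and 82 cells from young mice (9 weeks by the labels, 10 weeks by the protocol). They were sorted for the leptin receptor (LepR) and the PDGF receptor CD140a and against CD45, Ter119 and CD31, which mark blood, red and endothelial cells, captured singly on a microfluidic chip (Fluidigm C1), and their RNA was copied to cDNA with the SMARTer chemistry and sequenced. The labels name no transgene, no treatment and no animal. Each age therefore counted as 1 sample, no difference between the ages was tested, and the intervals below (exact Clopper-Pearson, 95%) cover counting error over cells only.

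RNA splicing removes introns from the transcript in the nucleus. Small nuclear ribonucleoproteins, RNA and protein particles named U1, U2, U4, U5 and U6, recognise the intron ends and carry out the cut. SR proteins, which have a tail rich in arginine and serine, bind exons and mostly promote their use, whereas heterogeneous nuclear ribonucleoproteins (hnRNPs) coat the transcript and often keep splice sites from being used. Poly(C)-binding proteins are KH-domain proteins that bind C-rich RNA and also act on RNA stability and translation.

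Values are FPKM, which divide the fragments of a gene by its length and by the total of the cell, so levels of different genes are compared per length. The number of reads per cell is unknown. A gene was called listed in a cell at 1 FPKM or more, and measured if its mean reached 1 FPKM in old or in young cells. Of the 6560 member values, 1657 (25.3%) were listed, 780 (11.9%) lay above 0 and under 1, and 4123 (62.9%) were exactly 0, which can be a failed estimate. Of the 41 members, 36 were measured. The 5 others, Pcbp3, Pcbp4, Snrnp25, Snrnp35 and Srsf12, were each listed in at most 2 cells of an age. A count of 0 was read as allowing up to 3 cells, which is 3.85% of old and 3.66% of young cells, and the exact intervals for 0 end at 4.62% for old and 4.40% for young cells.

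The sorted identity was seen in the RNA. At least 3 of 8 marrow stroma markers were listed in 71 of 78 old and 82 of 82 young cells, with Cxcl12 in 77 old and 82 young cells. Of the 2 receptors used in the sort, Lepr was listed in 71 old and 78 young cells and Pdgfra, which encodes CD140a, in only 30 old and 28 young cells. Vcam1 was listed in 53 old and 76 young cells (67.9% and 92.7%), Ebf1 in 51 old and 68 young (65.4% and 82.9%), Kitl in 62 old and 78 young (79.5% and 95.1%), Adipoq in 68 old and 78 young, and Foxc1 in 48 old and 45 young cells. Of 20 markers of hematopoietic, erythroid, endothelial and megakaryocyte cells, Cd68 was listed in 2 old and 3 young cells and the joint row of Hba-a1 in 1 old and 1 young cell, and the other 18, Ptprc and Pecam1 among them, in none. Old cells listed a median of 1160 named genes and young cells 1114.5. Xist was listed in 54 old and 0 young cells and Y-linked RNA in 0 old and 34 young cells. Each age had its own set of 96 capture wells, so age, sex-linked RNA and capture cannot be told apart in any comparison below.

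Most cells listed several splicing factors, and their number followed the number of genes seen in the cell. An old cell listed a median of 11 members (lowest 0, quartiles 6.25 and 15, highest 24) and a young cell 10.5 (lowest 1, quartiles 6.25 and 14, highest 19). The single old cell that listed no member had 313 named genes, and the one with 24 members had 2779, the most of any cell. Among the 39 old cells with more named genes the median was 14 members, and among the 39 with fewer it was 6. The 41 young cells with more named genes and the 41 with fewer likewise had medians of 14 and 6. Spearman's rho between members and named genes was 0.85 over 78 old cells and 0.84 over 82 young cells, and both numbers come from the same library. Per 1000 named genes, old cells listed a median of 10.1 members and young cells 9.27.

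**Figure D1:**
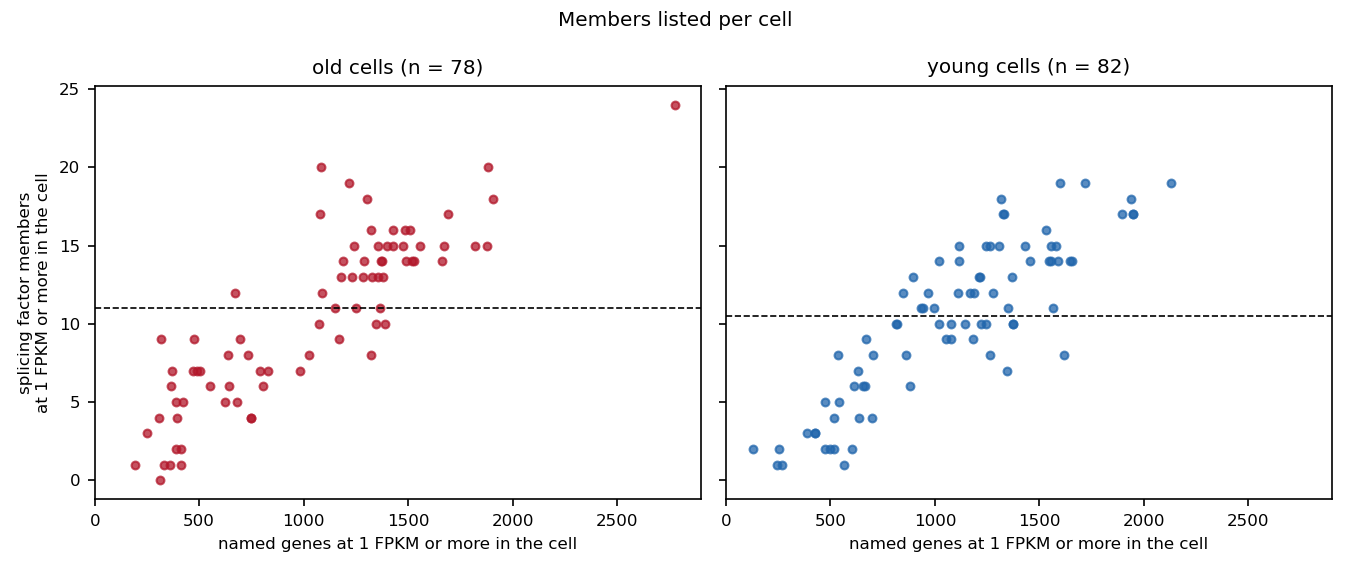
Each point is 1 cell; the horizontal axis is the number of named genes at 1 FPKM or more and the vertical axis the number of splicing factor members at that level, with old cells (n = 78) on the left and young cells (n = 82) on the right. The dashed lines are the medians of 11 members in old and 10.5 in young cells. In both ages most cells with few named genes lie below them, with some exceptions.

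The families differed in how many cells they reached. At least 1 Hnrnp member was listed in all but 4 old and 1 young cells and at least 1 Srsf member in all but 5 and 5. No Snrnp member was listed in 42.3% of old and 41.5% of young cells, and no Pcbp member in 57.7% of old and 69.5% of young cells. A larger family has more chances to be listed. The summed FPKM of all members was a median of 0.870% of the named FPKM of an old cell and 0.646% of that of a young cell. The Srsf family alone made up 0.411% in old and 0.275% in young cells, and for the Hnrnp family the medians were 0.283% in old cells against 0.217% in young.

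The members divided almost evenly between higher and lower listing in old cells. Of the 36 measured members, 20 were listed in a higher share of old cells, where 50.2% of all measured genes were, and 16 in a lower share, where 49.7% of all measured genes were. The median difference, old minus young, was 0.30 percentage points over the members and 0.06 over all 7196 measured genes. For 22 members the difference was under 5 points in either direction, and for 13 it was between 5 and 15. The remaining one, Hnrnpa2b1, was lower by more than 15 points in old cells, as were 2.08% of all measured genes. No member was higher by 15 points or more, as were 1.00% of all measured genes. The share of all measured genes under 5 points and between 5 and 15 was not computed. Measured members were listed in a median of 26.3% of old and 23.2% of young cells, all measured genes in 8.97% and 8.54%. A gene listed in few cells has less room to be lower by 15 points, so these shares are not like for like. The calls at 15 points depended on the cells and the threshold used. Counting any FPKM above 0, Hnrnpa2b1 differed by -13.7 points, and Srsf6 (20.4) and Hnrnpf (16.8) were at least 15 points higher in old cells, as were 2.79% of all measured genes (lower, 5.27%). Without the cells that listed under 50% of the median number of named genes of their age, Srsf6 was higher in old cells by 21.8 points, Pcbp1 by 15.9 and Hnrnph3 by 15.3, as were 2.69% of all measured genes (lower, 1.82%, with Hnrnpa2b1). Without cells whose summed FPKM was over 3 times the median of all cells, Hnrnpl and Snrnp48 differed by -15.9 points each and Hnrnpa2b1 by -23.2. Of all measured genes, 2.57% were then lower by 15 points or more and 0.930% higher, and no member was higher.

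**Figure D2:**
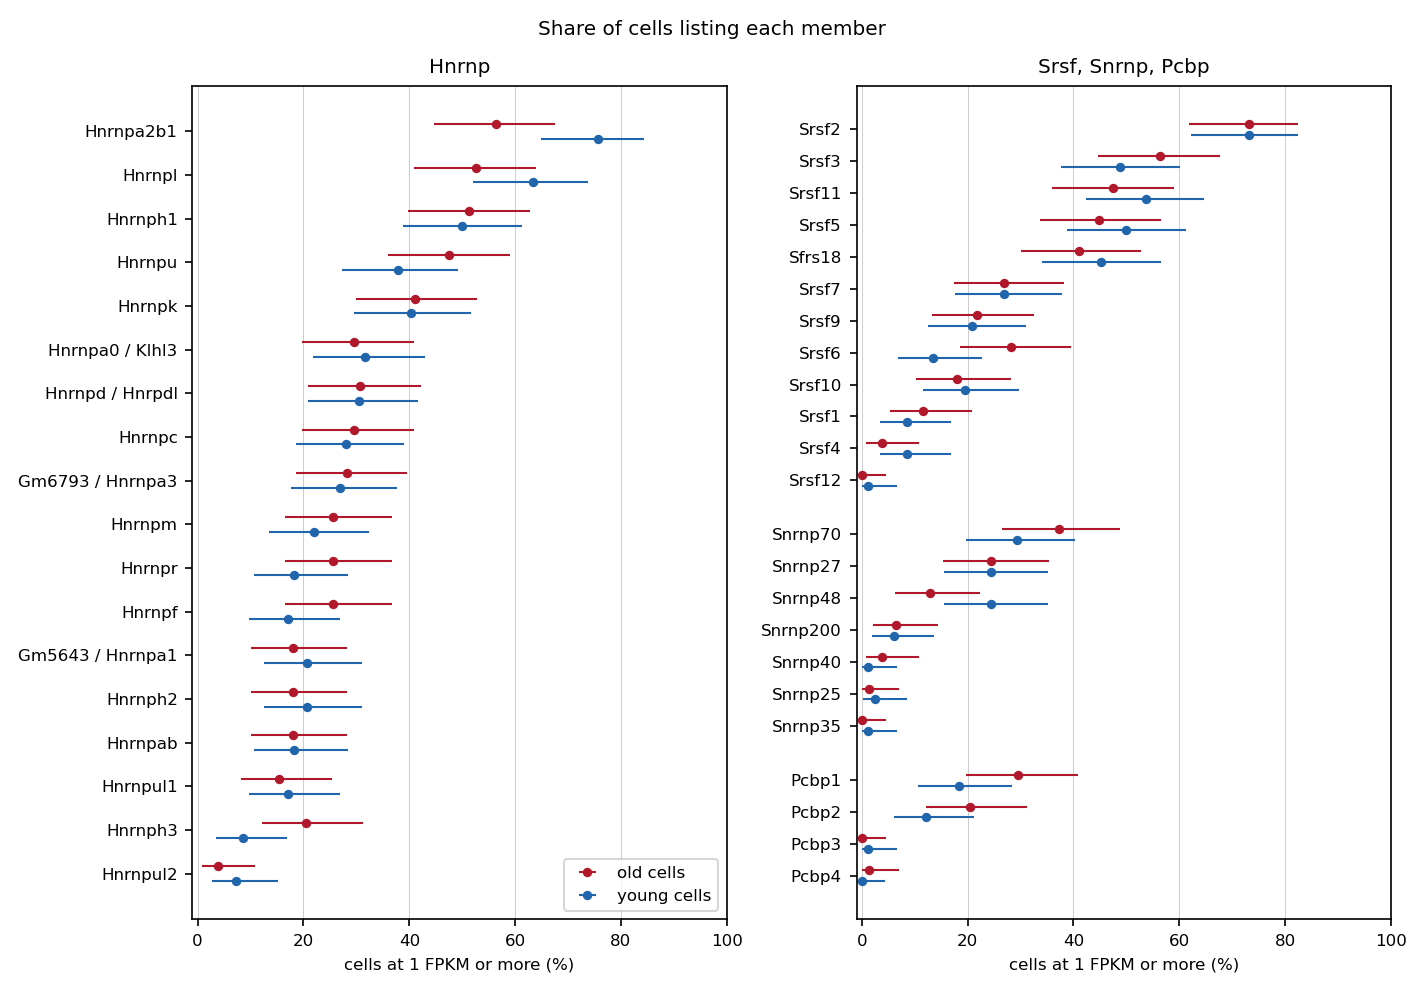
The share of cells (%) at 1 FPKM or more is shown for each of the 41 members, with 95% Clopper-Pearson intervals, old cells (n = 78) above young cells (n = 82). Most pairs of points lie close together, whereas Hnrnpa2b1 stood at 56.4% of old and 75.6% of young cells and Srsf6 at 28.2% of old and 13.4% of young cells.

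The SR proteins included the member listed in the most cells over both ages together and others listed in very few. Srsf2 (SC35), which binds exons and marks nuclear speckles, was listed in 57 of 78 old cells (73.1%, interval 61.8 to 82.5) and 60 of 82 young cells (73.2%, interval 62.2 to 82.4). Its values ran from 0 over a median of 117 to 1755 FPKM in old cells and from 0 over a median of 50.5 to 1191 FPKM in young cells. The 2 ages overlapped over nearly the whole range, and both held cells at 0 beside cells above 100 FPKM (42 old and 34 young cells). Srsf2 was the member with the highest FPKM in 41 old and 37 young cells. Its highest old cell held 8.70% of the FPKM summed over old cells and its highest young cell 8.10% of the young sum. In the RefSeq table of another build the Srsf2 gene overlaps Mfsd11, and how reads shared by overlapping genes were divided is not given in the sources used here.

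Srsf3, the smallest classical SR protein, also involved in RNA export, was listed in 44 old cells (56.4%, interval 44.7 to 67.6) and 40 young cells (48.8%, interval 37.6 to 60.1). Old cells ran from 0 over a median of 4.87 to 331 FPKM and young cells from 0 over 0.94 to 192 FPKM. At 10 FPKM or more Srsf3 was found in 36 old (46.2%) and 27 young cells (32.9%). The ages overlapped, with the highest cells among the old ones. With every cell rescaled to the same sum, the difference in share was 0.063 points, where it was 7.63 as deposited.

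Srsf6 (SRp55), a regulator of alternative exons, had the largest difference toward old cells of any member. It was listed in 22 old cells (28.2%, interval 18.6 to 39.5) and 11 young cells (13.4%, interval 6.89 to 22.7), and these intervals overlap. The highest value was 39.3 FPKM in old and 92.6 FPKM in young cells, so the higher share in old cells did not go with a higher maximum. Among cells with more named genes it was listed in 16 of 39 old and 8 of 41 young cells, and among those with fewer in 6 of 39 old and 3 of 41 young cells. At 10 FPKM it was in 12 old and 4 young cells.

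Srsf11, an SR-related protein, had the lowest difference in share of its family, with 37 old cells (47.4%, interval 36.01 to 59.1) and 44 young cells (53.7%, interval 42.3 to 64.7). Its values reached 308 FPKM in old cells, and in young cells a single value of 8449 FPKM stood above the next of 758 FPKM. Srsf7, which binds exons and also acts in RNA export, was listed in 26.9% of old and 26.8% of young cells. Its mean was 23.4 FPKM in old and 8.62 FPKM in young cells, the highest ratio of the family (log2 1.34). Srsf4 was listed in only 3 old cells (highest 6.15 FPKM) and 7 young cells (highest 295 FPKM). Srsf10, which acts as a repressor of splicing when dephosphorylated, was in 14 old and 16 young cells. Srsf5 was listed in 35 old and 41 young cells, Srsf9 in 17 old and 17 young cells, and Srsf1 (SF2/ASF), a founding SR protein, in 9 old and 7 young cells. Sfrs18 is an older name of Pnisr, a protein rich in arginine and serine, and was listed in 32 old and 37 young cells.

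**Figure D3:**
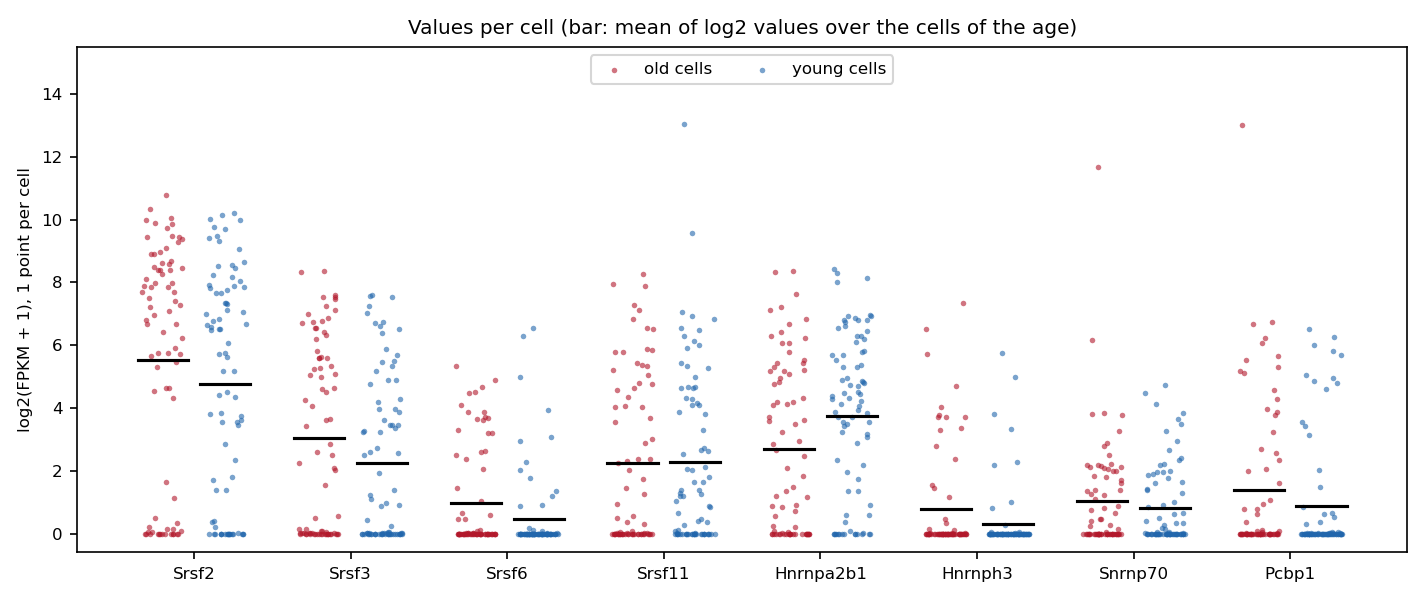
Each point is log2(FPKM + 1) of 1 cell for 8 members described in the text, chosen after their values were seen, with old cells (n = 78) left of young cells (n = 82) and a bar at the mean of the log2 values. Every member has many cells at 0 in both ages, Srsf2 has the highest mean, and Srsf11, Snrnp70 and Pcbp1 each have 1 cell far above the rest.

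Among the hnRNPs, Hnrnpa2b1 had the largest difference in share of all 41 members. The gene encodes hnRNP A2/B1, which binds UAG-containing RNA and sorts RNA for transport. It was listed in 44 of 78 old cells (56.4%, interval 44.7 to 67.6) and 62 of 82 young cells (75.6%, interval 64.9 to 84.4), and the intervals overlap. The stroma markers Vcam1, Ebf1 and Kitl were also listed in a lower share of old cells, with differences of -24.7, -17.5 and -15.6 points, and their part in the Hnrnpa2b1 difference was not tested. Old cells ran from 0 over a median of 2.88 to 327 FPKM and young cells from 0 over 17.2 to 344 FPKM, so that the ages shared their range and differed in how many cells lay low. Among cells with more named genes it was listed in 29 of 39 old and 38 of 41 young cells, and among those with fewer in 15 of 39 old and 24 of 41 young cells. Counting any value above 0 it was found in 69.2% of old and 82.9% of young cells, and at 10 FPKM in 42.3% of old and 62.2% of young cells. No cell held much of it, at most 13.96% of the old and 9.60% of the young sum. In the cells that listed it, the median level was 28.6 FPKM in old and 27.2 FPKM in young cells.

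Hnrnpl, which binds CA repeats, was next in number of cells, with 41 old (52.6%, interval 40.9 to 64.0) and 52 young cells (63.4%, interval 52.05 to 73.8), mostly at low levels. The cells that listed it had a median of 4.90 FPKM in old and 5.98 FPKM in young cells. Hnrnph1, which binds G-rich RNA, was listed in 40 old and 41 young cells. Its relative Hnrnph3 had the largest difference toward old cells in the family, with 16 old (20.5%, interval 12.2 to 31.2) and 7 young cells (8.54%, interval 3.50 to 16.8). Hnrnph3 reached 163 FPKM in old and 52.6 FPKM in young cells. In the RefSeq table Hnrnph3 overlaps Rufy2. Hnrnpm, which binds GU-rich RNA, was in 20 old (25.6%) and 18 young cells (21.95%) and reached 1263 FPKM in old and 85.6 FPKM in young cells.

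Hnrnpa1, in many tissues among the most abundant hnRNPs, was listed only jointly with Gm5643 and in few cells. The joint row was at 1 FPKM or more in 14 old (17.9%, interval 10.2 to 28.3) and 17 young cells (20.7%, interval 12.6 to 31.1). Its highest values were 43.7 FPKM in old and 164 FPKM in young cells. Hnrnpa3 was joined with Gm6793, Hnrnpa0 with Klhl3 and Hnrnpd with Hnrpdl, and none of these values can be given to 1 symbol. Hnrnpul1, which encodes a relative of hnRNP U, was in 12 old and 14 young cells. Hnrnpab, Hnrnpc, Hnrnpf, Hnrnph2, Hnrnpk, Hnrnpr, Hnrnpu, Hnrnpul2 and the 3 other joint rows were listed in 3.85% to 47.4% of old and 7.32% to 40.2% of young cells.

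Among the cells that listed a given hnRNP, the old ones more often had the higher median level at the 1 FPKM threshold. The median FPKM of the listing cells was compared for measured genes listed in at least 5 cells of each age, a comparison chosen after the values were seen. It was higher in old cells for 23 of 33 members, where 52.9% of 3895 genes were higher, and for 14 of 17 Hnrnp members, 6 of 10 Srsf, 2 of 4 Snrnp and 1 of 2 Pcbp members. Srsf2 had 234 FPKM in listing old cells and 120 FPKM in listing young cells. Hnrnpk, which binds C-rich RNA, had 26.7 FPKM in old and 12.4 FPKM in young cells, and Srsf3 47.3 FPKM in old and 17.9 FPKM in young cells. Counting only cells at 10 FPKM or more, the old median was higher for 14 of 28 members and 8 of 15 Hnrnp members, where 53.8% of genes were higher. The pattern was thus not seen at that threshold.

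Proteins of the U1 and U4/U6.U5 particles were each listed in a minority of cells. Snrnp70, the U1 protein U1-70K that helps to recognise the 5′ splice site, was listed in 29 old (37.2%, interval 26.5 to 48.9) and 24 young cells (29.3%, interval 19.7 to 40.4). Its median in listing cells was 3.35 FPKM in old and 3.59 FPKM in young cells, so most values were low. Snrnp27, a protein of the U4/U6.U5 particle, was in 19 old (24.4%) and 20 young cells (24.4%). Snrnp200, the helicase Brr2 of the U5 particle that unwinds U4 from U6, was in 5 old and 5 young cells, and Snrnp40, another U5 protein, in 3 old and 1 young cell.

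The proteins of the minor spliceosome, which removes a small class of introns with U11 and U12, differed in how many cells listed them. Snrnp48 was listed in 10 old (12.8%, interval 6.32 to 22.3) and 20 young cells (24.4%, interval 15.6 to 35.1). Its values reached 284 FPKM in old and 317 FPKM in young cells, and the ages overlapped. Among cells with more named genes it was in 8 of 39 old and 14 of 41 young cells, and among those with fewer in 2 of 39 old and 6 of 41 young cells. Snrnp25 was listed in 1 old and 2 young cells, and Snrnp35 in 0 old and 1 young cell.

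Both measured poly(C)-binding proteins were listed in a higher share of old cells, as were 50.2% of all measured genes. Pcbp1, which also acts as an iron chaperone, was in 23 old (29.5%, interval 19.7 to 40.9) and 15 young cells (18.3%, interval 10.6 to 28.4). Pcbp2 was in 16 old (20.5%, interval 12.2 to 31.2) and 10 young cells (12.2%, interval 6.01 to 21.3). For both genes the intervals of the ages overlap. Counting any FPKM above 0, Pcbp2 was in 22 old and 22 young cells, and at 10 FPKM in 9 old and 2 young cells. In listing cells the median of Pcbp1 was 18.5 FPKM in old and 27.7 FPKM in young cells. That of Pcbp2 was 11.6 FPKM in old and 5.32 FPKM in young cells. Among cells with more named genes Pcbp1 was in 19 of 39 old and 9 of 41 young cells, and among those with fewer in 4 of 39 old and 6 of 41 young cells, so the difference lay with the cells of more genes. Pcbp3 was in 0 old and 1 young cell and Pcbp4 in 1 old and 0 young cells.

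Single cells held most of the FPKM of some members. Among members listed in at least 5 cells of an age, 1 cell held over 50% of the summed FPKM for 6 of 33 members in old cells, where this was so for 27.4% of all such genes, and for 4 of 35 members in young cells, where this was so for 27.7%. The median top share was 24.9% over members and 37.5% over all genes in old cells, and 29.2% over members and 36.96% over all genes in young cells. These medians are not like for like, because measured members were listed in a median of 26.3% of old and 23.2% of young cells. For all measured genes these shares were 8.97% and 8.54%. Among members listed in at least 20 cells, 3 of 21 had a dominant cell in old cells (10.0% of all such genes). In young cells 1 of 18 did (13.2%). At that limit the members did not lie below all genes in old cells. No member was dominated by 1 cell in both ages.

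By family, the dominated members in old cells were 2 of 17 Hnrnp, 1 of 10 Srsf, 2 of 4 Snrnp and 1 of 2 Pcbp. In young cells they were 0 of 18 Hnrnp, 3 of 11 Srsf, 0 of 4 Snrnp and 1 of 2 Pcbp. The largest shares belonged to a few members. In old cells 1 cell at 3305 FPKM held 94.5% of Snrnp70, with the next cell at 70.6 FPKM, and another at 8368 FPKM held 92.6% of Pcbp1, with the next at 105 FPKM. Hnrnpul1 followed with 59.4%, Hnrnpm with 52.1%, Srsf10 with 51.2% and Snrnp200 with 51.2%. In young cells 1 cell at 8449 FPKM held 80.9% of Srsf11, and other cells held 70.9% of Srsf1, 66.7% of Srsf4 and 63.05% of Pcbp2. The joint row of Hnrnpa1 had the highest share among young hnRNPs, 47.8%. Srsf2 had the lowest top share of all members compared, in old and in young cells.

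**Figure D4:**
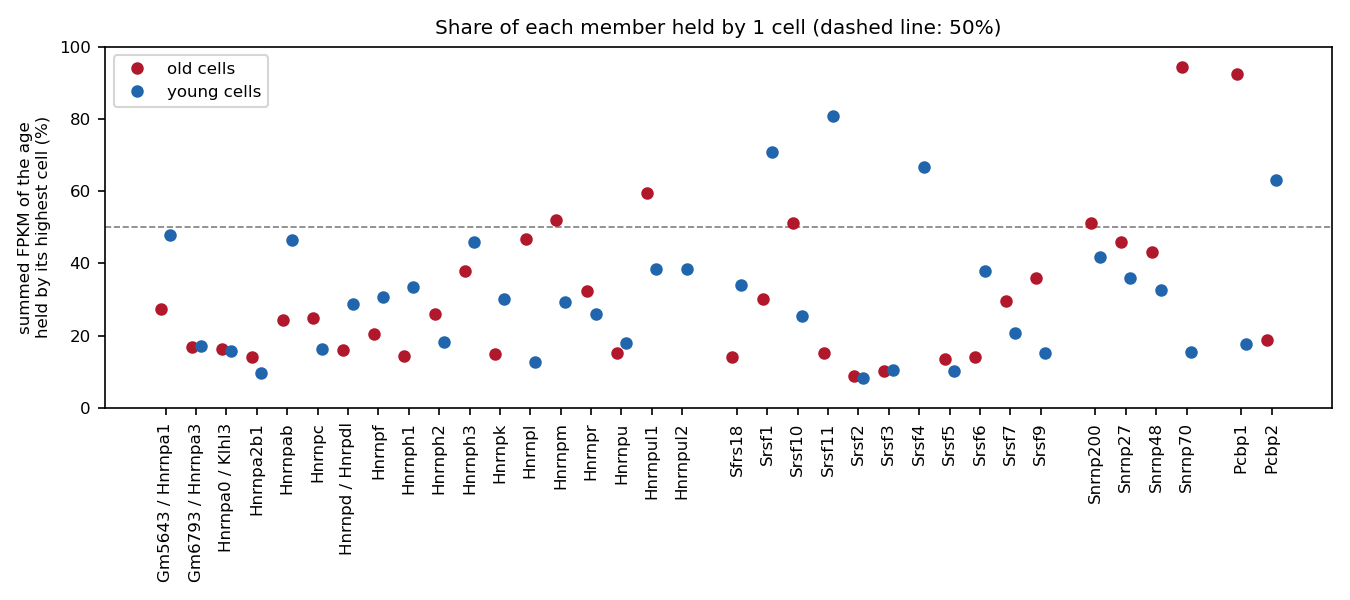
For each member listed in at least 5 cells of an age, the point gives the percent of the FPKM summed over that age that its highest cell held, with old cells left of young cells. Snrnp70 (94.5%) and Pcbp1 (92.6%) lie near the top in old cells only, Srsf11 (80.9%) in young cells only, and Srsf2 stays lowest in both.

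Most of the cells that held these sums listed fewer named genes than the median cell of their age. The 6 dominated members in old cells had 6 different top cells, and 5 of these cells listed fewer named genes than the median old cell (from 361 to 1346 genes over the 6). The 4 in young cells had 3 top cells, of which 2 listed fewer than the median young cell, and 1 cell with 814 genes held both Srsf1 and Pcbp2. How often the top cells of other genes lay under the median was not counted. The cell with 94.5% of Snrnp70 listed no other member. Over all members 13 values reached 1000 FPKM. Of these, 8 belonged to Srsf2, in cells with 366 to 1897 named genes, and 5 to Hnrnpm, Pcbp1, Snrnp70, Hnrnph1 and Srsf11, 1 value each, in cells with 361 to 637 named genes. With the cells of few named genes again left out, dominated members numbered 1 in old cells (Hnrnpm, 60.9%) and 5 in young cells, where Hnrnph3 joined the 4 above. Over the same remaining cells, 1149 of 4621 genes had a dominant cell in old and 1277 of 4920 in young cells. The old cell that held most of Pcbp1 and the young cell that held most of Srsf11 also had high FPKM sums over all named genes, 1109250 and 274943, where the medians were 74370 in old and 74835 in young cells. What gave these cells their high values was not tested.

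Ratios of mean FPKM followed these cells. The log2 ratio of means, old over young, with a pseudocount of 1 FPKM added to each mean, had a median of 0.07 over the 36 measured members and 0.03 over all measured genes. Adding 1 FPKM understates the ratio of low genes. The log2 ratio was 1 or more for 8 members (24.5% of all measured genes) and -1 or less for 4 (24.4%). Pcbp1 had the highest ratio, 4.01, with means of 116 FPKM in old and 6.25 FPKM in young cells, and Snrnp70 had 3.92, with means of 44.8 FPKM in old and 2.02 FPKM in young cells. Without the highest cell of each age these ratios were 0.64 for Pcbp1 and 0.35 for Snrnp70. Srsf4 had the lowest ratio, -2.46, with means of 0.16 FPKM in old and 5.39 FPKM in young cells, and Srsf11 had -2.26. Without those cells they were -1.38 for Srsf4 and -0.14 for Srsf11. Snrnp40 (1.15), Srsf1 (-1.96) and Sfrs18 (-1.16) also passed only with every cell included, and had 0.28, -0.80 and -0.78 without the highest cells.

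Leaving out the highest cell of each age for every gene left 5 members at a log2 ratio of 1 or more and 1 at -1 or less, against 14.1% and 14.1% of all measured genes. The 5 were Hnrnpm (2.18), Hnrnpf (1.44), Hnrnpr (1.42), Hnrnph3 (1.34) and Srsf7 (1.16), and the 1 was Srsf4. All of them had also passed with every cell included, where Hnrnpm had 2.81, Hnrnpr 1.62, Hnrnph3 1.44 and Hnrnpf 1.32. Without the cells of few named genes, Hnrnpf had 0.71, under the limit, and Snrnp70 had -0.16. Without the cells of high sums, Srsf11 had 0.68 and Pcbp1 0.34. Hnrnpf and Hnrnpr fell outside the rule for named genes and are given because the count is small. In the RefSeq table Hnrnpf, like Hnrnph3, overlaps another protein-coding gene. Hnrnpm averaged 31.1 FPKM in old and 3.58 FPKM in young cells, and its second highest old cell stood at 457 FPKM. The ratio changed sign for 7 of the 36 members. The Snrnp and Pcbp families had no member past this size without their highest cells. Pcbp2 had -0.34 with all cells and 0.45 without, and Snrnp48 had -0.45 with all cells and -0.64 without.

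**Figure D5:**
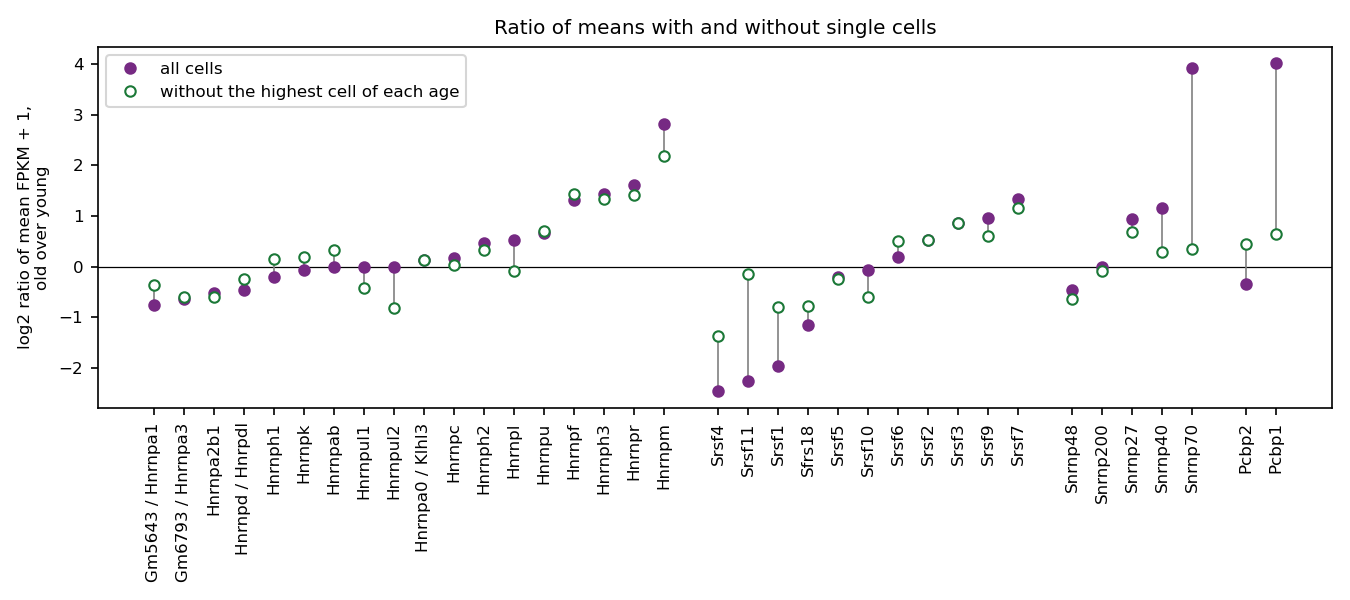
For each of the 36 measured members the log2 ratio of mean FPKM + 1, old over young, is drawn with all cells (filled) and without the highest cell of each age (open), by family. Pcbp1 moves to 0.64 from 4.01 and Snrnp70 to 0.35 from 3.92, whereas Hnrnpm, Hnrnpf, Hnrnpr and Hnrnph3 stay above 1.

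A list of 83 genes outside the members held Sm proteins, U2 binding proteins, tri-snRNP proteins, SR-related proteins and kinases and other RNA-binding proteins, and 75 of them were measured. Of these, 34 were listed in a higher share of old cells (50.2% of all measured genes) and 41 in a lower share (49.7%). The median difference was -1.03 percentage points, against 0.06 over all measured genes. By group the higher ones were 6 of 11 Sm and U1/U2 proteins, 3 of 9 U2 binding, 6 of 9 U4/U6.U5 and Prp19, 8 of 18 SR-related and kinases and 11 of 28 other RNA-binding proteins. Matr3 (matrin 3, a nuclear matrix protein) was listed in 46.2% of old and 29.3% of young cells. At the other end, Nono, a paraspeckle protein, was listed in 10.3% of old and 28.05% of young cells, and Qk, the STAR-family splicing regulator quaking, in 35.9% of old and 53.7% of young cells. A single cell held over 50% of the sum for 11 of 65 of these genes in old and 20 of 66 in young cells. Only genes listed in at least 5 cells of the age were counted. Of all such genes, 27.4% had such a cell in old and 27.7% in young cells.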

How the data were processed

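The authors deposited 1 table of FPKM by gene and cell. Per the submitters' processing notes it was made with Cufflinks 2.1.1 and mouse build mm9; how overlapping or shared reads were divided, whether strand was used, and depth are not given in these sources. Of 31199 rows, 7751 without a gene name were left out, and rows sharing a name were summed. The unnamed rows held a median of 43.8% of the FPKM of an old cell (lowest 4.68%, highest 89.3%). In a young cell they held 47.2% (lowest 22.2%, highest 99.7%). Percentages of the named FPKM and the rescaling leave this part out. No count model was used. Per the protocol, microscopy left 79 old and 83 young valid wells, against 78 and 82 cells analysed. No doublet caller was run. No 2 cells had identical columns. Ages came from the labels, and no coordinates are given. RefSeq names (GRCm38) matched 40 member symbols directly and 1 by synonym. There 11 members overlap another protein-coding gene: Hnrnpab, Hnrnpd, Hnrnpf, Hnrnph3, Hnrnpk, Hnrnpu, Pcbp2, Pcbp4, Snrnp35, Srsf2 and Srsf9.

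Listed meant 1 FPKM, measured a mean of 1 FPKM in either age, and the pseudocount was 1. Named genes were, per family, the 3 most listed members, those with extreme differences in share, top-cell shares and ratios, and 2 genes at each end of the other list, of which 1 is not reported here; further members are named to account for all of them or where a count was small, after their values were seen. Alternatives changed the listing threshold, pseudocount, filters, scaling, cells and joint rows. The members and lists were chosen with earlier results of these data known. Steps were tested on simulated data. Software was Python 3.11.15, pandas 2.3.3, numpy 2.4.6, scipy 1.17.1 and matplotlib 3.10.9.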

Additional observations from a re-analysis of the deposited data

How the results depend on the processing

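No paired analysis was possible because the cell numbers of both ages are only names and each age is 1 sample, and no test was made. Of 51 alternative values, 23 kept their sign and stayed within 1.5 times the reported value, 23 moved further and 5 changed sign. The cause of these moves was not tested.

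The median number of members per cell, old minus young, was 0.5; it was 1 counting any FPKM above 0, 1 at 10 FPKM, 0 with every cell rescaled to the same sum, 1.5 without cells of few genes (58 old and 68 young cells left), 1 without cells of high sums (69 and 69 left) and -0.5 without joint rows. The median difference in share, 0.30 percentage points, was -0.39 counting any value above 0, 2.72 at 10 FPKM, 0.094 with no filter on low values, -0.34 with rescaling, 3.12 without cells of few genes, -0.72 without cells of high sums and 0.55 without joint rows. Members with a higher share of old cells, 20 of 36, were fewer than those without in 3 of 7 alternatives, 17 of 36 counting any value above 0, 15 of 35 with rescaling and 16 of 36 without cells of high sums, and numbered up to 23 of 36 in the others. The median log2 ratio, 0.07, was 0.00011 with no filter, 0.13 as a difference of mean log2 values, 0.18 without each gene's highest cells, 0.15 with rescaling, -0.018 without cells of few genes and 0.19 without joint rows. Members with a dominant cell numbered 16 of 33 in old and 21 of 35 in young cells at a limit of 25%. They were 2 of 30 in young cells among members listed in 10 or more cells. Without cells of few genes they were 1 of 32 in old cells (24.9% of all such genes). The share of all genes was not computed at the limits of 25% and of 10 cells. The median top share over all genes, 37.5% in old and 36.96% in young cells, lay above 25%. The level in listing cells, added after the data were seen, was higher in old cells for 14 members at 10 FPKM and for 21 to 25 in its other alternatives. The medians over the members are small beside these shifts. Hnrnpa2b1, which had the largest difference in share of all members, was lower in old cells in every alternative given for it. Its differences were -13.7 points counting any value above 0, -19.9 at 10 FPKM and -20.4 with rescaling. They were -17.8 without cells of few genes and -23.2 without cells of high sums. Keeping the sign was not particular to Hnrnpa2b1. In the same order, Srsf6 differed by 20.4, 10.5, 11.1, 21.8 and 14.5 points. Snrnp48 differed by -7.35, -3.16, -11.6, -12.4 and -15.9 points. Hnrnpk changed sign, with -3.53 points counting any value above 0 and 6.19 at 10 FPKM. Members at least 15 points higher in old cells, 0, numbered 2 counting any value above 0 and 3 without cells of few genes, and those lower, 1, numbered 0 counting any value above 0 and 3 without cells of high sums, alternatives added after the data were seen. Depth is unknown, so absence below 1 FPKM cannot be read as absence of the RNA.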
